A study of Mus musculus with 20 samples.

Results

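Dppa2, Dppa3, Dppa4, Dppa5a and Utf1 were followed through RNA immunoprecipitation of Tet proteins in mouse embryonic stem cells (ESCs). The 5 genes were taken by name, the developmental pluripotency-associated (Dppa) genes and Utf1, out of 23284 genes in the files, and all 5 were among the 13710 genes with enough reads to be tested. Dppa1, another Dppa symbol of the files, was read at 0 to 0.05 TPM and was not tested. Each line was made from wild-type ESCs by adding a Flag, HA and Twin-Strep tag to the C-terminus of an endogenous protein with CRISPR-Cas9n: Tet1 in the Tet1-KI line, Tet2 in the Tet2-KI line, and Tet2 without its RNA-binding domain in the line of genotype Tet2-delta-RNA-binding-domain-KI, called Tet2dRBD here. All cells grew on gelatin in serum with leukemia inhibitory factor. RNA pulled down with anti-Flag antibody (IP) was sequenced beside RNA of the same line without pull-down (input), and IP and input with the same replicate number are called a pair. By the study's methods, the pull-down started from cytoplasmic extract, while the input was total RNA. IP over input therefore also compares these preparations, and the part of that in the ratios was not tested. There were 2 IP and input pairs for Tet1, 4 for Tet2 and 4 for Tet2dRBD, 20 libraries in all. The lines came from picked clones, and the labels do not tell how many clones stand behind a line or whether replicates were separate cultures, so the p-values measure the spread between these libraries only. No untagged or control-antibody IP was used here, and IP values are therefore read against input alone.

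The Dppa genes were named from their expression in pluripotent cells and do not form a single protein family. Dppa2 and Dppa4 each carry a SAP DNA-binding domain, act as a heterodimer on chromatin, keep developmental genes open to later activation, and can activate genes of the 2-cell-like state such as Dux and the Zscan4 cluster. Dppa3 (Stella or PGC7) is a maternal factor that protects the oocyte-derived genome from Tet3-dependent loss of methylation and restrains the DNA methylation cofactor Uhrf1. Dppa5a (Esg1) is a small KH-domain RNA-binding protein, and Utf1 is a chromatin-bound cofactor that acts at bivalent developmental genes. Tet1 and Tet2 oxidise 5-methylcytosine, in DNA and in RNA, and whether a transcript is recovered with them is the question the IP addresses.

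Because cytosine is the base that Tet proteins act on and pyrimidine-rich stretches are discussed as their sites in RNA, the 30-base stretch with the most C and T in the coding sequence is shown here for the transcripts of Dppa2, Dppa3, Dppa5a and Utf1 (5′ to 3′, DNA letters of the mRNA strand, mouse build mm9 with GENCODE vM1 transcripts), with the longest unbroken run of C and T in capitals.

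Dppa2: cacctgTCCTCCgcccagcctgcctcctat
Dppa3: ccattcagatgtctctgcaCTTTCTgccat
Dppa5a: ccctcgtgacccgtaaagataTCCCCCCgt
Utf1: ttgcccgCTTTTTCTCCgccgtcgccagct

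These windows begin at transcript positions 255, 489, 89 and 40 in that order. They hold 23, 21, 19 and 23 pyrimidines of 30. In the Dppa2 window another run, near the 3′ end, is as long as the marked run of 6 bases. Windows as rich or richer were present in 61.7%, 89.9%, 98.4% and 61.7% of the coding sequences of the 13109 tested genes that matched an annotated transcript, so none of these 4 stood out by this measure. A window is a description of letters and was not tested as a binding site. Introns, where the study found more of the Tet1 and Tet2 binding, were not searched. A longer coding sequence offers more windows, and those of Dppa2, Dppa3, Dppa5a and Utf1 were 906, 453, 357 and 1020 bases long. Over the whole transcript, Utf1 differed in composition from the others: its GC content was 63.3%, above that of 98.9% of genes, and its pyrimidine content was 56.8%, above that of 99.7%. GC contents of the other transcripts ran from 43.9% for Dppa2 to 49.4% for Dppa5a, against a median of 51.1% over genes.

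In mm9 coordinates, Dppa4 (chr16:48283848-48294405, plus strand) and Dppa2 (chr16:48310590-48319836, plus strand) were neighbours, 16185 bases apart. Dppa3 was at chr6:122576428-122580290 on the plus strand, Dppa5a at chr9:78214859-78215984 on the minus strand, and Utf1 at chr7:147129688-147131011 on the plus strand. All 5 are protein-coding and were counted over their exons (7 for Dppa2, 4 for Dppa3, 7 for Dppa4, 3 for Dppa5a and 2 for Utf1). Their transcripts were 1948, 833, 1534, 619 and 1160 bases long in the same order, against a median of 2775 bases over genes. RefSeq also lists the pseudogenes Dppa5b and Dppa5c, so reads of near-identical copies could be split with Dppa5a, and its values are uncertain to that extent.

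The libraries held 21078995 to 37576638 expected counts (median 25517290), and the counts of the genes described here ran from 58.0 for Dppa3, in the IP of Tet2 replicate 4 (119.0 in its input), to 175395 for Dppa5a, in an input. As a sum, ESC markers were abundant in every input (Pou5f1, Sox2, Nanog, Zfp42, Esrrb and Klf4 summed to 3045 to 4057 TPM), against 10.7 to 63.2 for fibroblast, 5.14 to 93.9 for endoderm, 2.11 to 5.46 for mesoderm, 9.04 to 20.96 for neuroectoderm, 0.06 to 0.90 for trophectoderm and 0.61 to 7.58 for 2-cell-like markers. Pou5f1 alone was at 2000 to 3191 TPM. Zfp42 (15.3 to 75.8) and Klf4 (17.4 to 45.0) overlapped in range with the endoderm marker Gata4 (1.99 to 43.7) and the fibroblast marker Thy1 (8.43 to 35.8). No marker was at 0 in all inputs. By a number carried with the deposited data, replicate 1 and replicate 2 of Tet2 and Tet2dRBD each had a number of their own, and replicates 3 and 4 shared one with both Tet1 replicates. The labels do not explain this number, and libraries that share it are taken here, as an assumption, to form a set. Replicates 3 and 4 of a group were much closer to each other (chi-square of 2.69 to 16.1 per gene) than any other replicates of Tet2 or Tet2dRBD (132 to 527). The Tet1 replicates were similarly close (7.5 in IP and 7.62 in input), and whether such replicates are technical is not stated.

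In unprecipitated RNA the 5 transcripts covered a wide range of levels, here in TPM, a length-corrected unit. Dppa5a was the second most abundant gene of all, at 11003 ± 1105 (SD, n = 10 inputs), and Utf1 ranked 156, at 875 ± 304. Dppa4 followed at 93.7 ± 22.0 and Dppa2 at 73.4 ± 37.3, and Dppa3 was lowest at 19.8 ± 9.57. The input of Dppa5a varied 1.38-fold from the lowest to the highest library and that of Dppa4 2.05-fold, while Dppa2 varied 6.67-fold and Dppa3 3.65-fold. The low inputs of Dppa2 were those of replicate 1, at 20.03 TPM in Tet2 and 24.6 in Tet2dRBD, where every other input was between 64.8 and 134. Those of Dppa3 ran the other way, with 32.0 and 27.2 TPM in replicate 1 of Tet2 and Tet2dRBD against 8.82 to 17.9 in replicates 2 to 4.

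**Figure D1:**
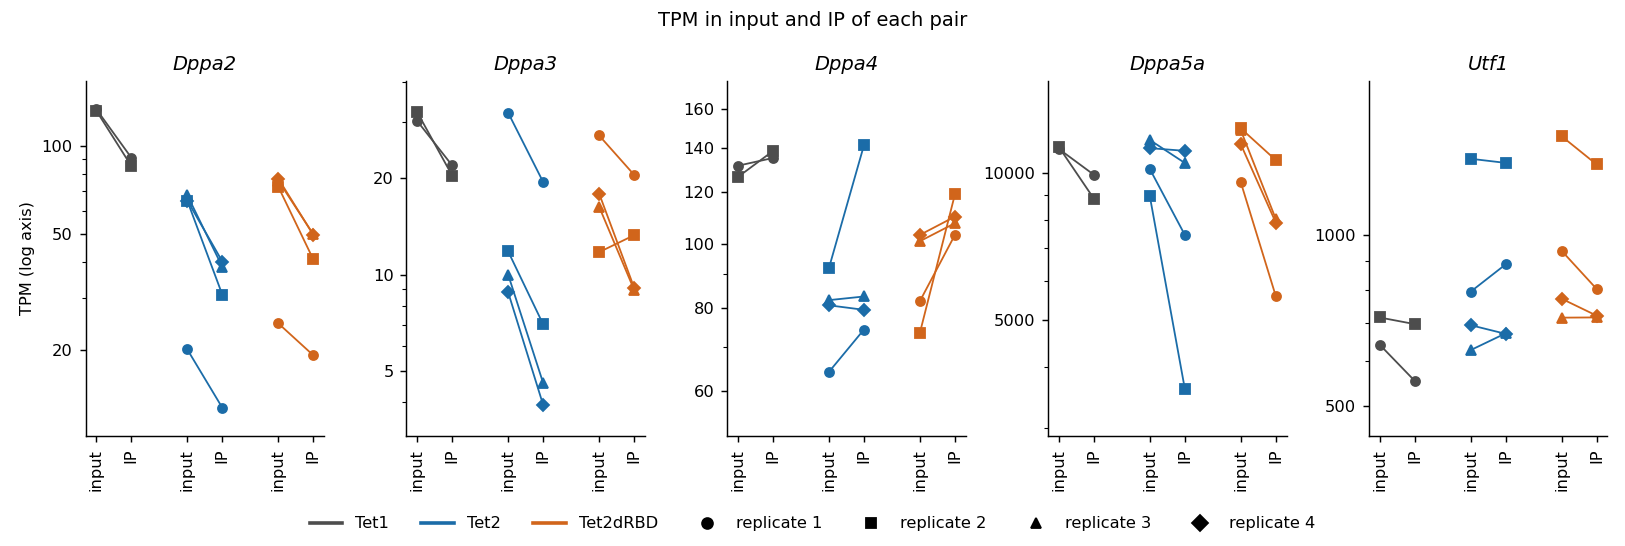
TPM of each gene in input and IP of the 10 pairs, on a log axis that differs between panels, with a line joining the libraries of a pair, colour for the tagged line and symbol for the replicate. For Dppa2 every line falls from input to IP, for Dppa4 lines rise or stay level, and replicate 1 has the lowest Dppa2 and high Dppa3 inputs of Tet2 and Tet2dRBD.

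Dppa2 mRNA was lower in IP than in input in all 10 pairs. In Tet1 the IPs held 91.1 and 85.3 TPM against inputs of 134 and 132. In Tet2 the IPs held 12.6, 30.9, 38.5 and 40.1 TPM in replicates 1 to 4, against inputs of 20.03, 64.8, 67.8 and 65.0. In Tet2dRBD the IPs held 19.13, 40.8, 49.8 and 49.6 TPM, against 24.6, 72.5, 76.1 and 77.3. The Tet1 IPs lay below both Tet1 inputs, whereas in the Tet2 and Tet2dRBD lines the input of replicate 1 overlapped the IPs of other replicates, so the difference was seen within pairs. How many of all genes have Tet1 IPs apart from Tet1 inputs was not counted, and the Tet1 replicates were close to each other. In 30.1% of tested genes the Tet1 IP was below its own input in every replicate. In the count model (edgeR quasi-likelihood test, each IP paired with its own input, Benjamini-Hochberg adjustment over all genes), the fitted log2(IP/input) of Dppa2 was −0.74 (SE 0.16, adjusted p = 0.0293) in Tet1, −1.13 (SE 0.11, adjusted p = 0.000154) in Tet2 and −0.89 (SE 0.11, adjusted p = 0.000884) in Tet2dRBD. These are IP levels of 0.599, 0.457 and 0.540 of input relative to the bulk of transcripts. Of all genes tested, 4.73% had a lower fitted ratio in Tet1, 2.22% in Tet2 and 2.68% in Tet2dRBD. By level, the groups ran from Tet1 input through Tet1 IP, Tet2dRBD input, Tet2 input and Tet2dRBD IP to Tet2 IP, and from Tet2dRBD input downward each group overlapped the next.

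Dppa4, the partner of Dppa2 and its neighbour on the chromosome, was not lower in IP. In Tet1 the IPs held 135 and 138 TPM against inputs of 131 and 126. In Tet2 the IPs held 74.3, 141, 83.4 and 79.6 TPM against 64.1, 92.1, 82.3 and 80.9, and in Tet2dRBD 103, 119, 108 and 110.1 TPM against 82.1, 73.5, 101 and 103. IP TPM was above input in 9 of the 10 pairs, the exception being replicate 4 of Tet2, and the larger gaps were those of replicate 2 in both Tet2 lines. The direction depends on the scaling: TPM ratios of all genes were shifted upward in IP (median log2 ratio 0.079 in Tet1, 0.23 in Tet2 and 0.19 in Tet2dRBD), and relative to the bulk of transcripts in the count model Dppa4 stood at −0.06 (SE 0.19, adjusted p = 0.894), −0.11 (SE 0.14, adjusted p = 0.577) and 0.02 (SE 0.14, adjusted p = 0.932). Those values were in the middle of the distribution, with 47.9%, 41.6% and 53.7% of genes lower. By level, Tet1 IP and then Tet1 input stood above the other groups, except that replicate 2 of the Tet2 IP at 141 TPM was higher than every other library, and from Tet2dRBD IP downward each group overlapped the next.

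The 2 partners can be set against each other within each library. The log2(IP/input) of Dppa4 exceeded that of Dppa2 in 10 of 10 pairs, by 0.59 to 1.66 (mean 0.89 ± 0.37, SD, n = 10 pairs). Per line the mean was 0.67 ± 0.12 in Tet1 (n = 2), 0.99 ± 0.45 in Tet2 (n = 4) and 0.90 ± 0.40 in Tet2dRBD (n = 4). This difference does not depend on how a library is scaled, since both genes share the factor. The TPM ratio of Dppa4 to Dppa2 was 0.957 to 3.33 in inputs and 1.48 to 5.88 in IPs, and in every pair it was higher in the IP. The 2 genes differed in length too, Dppa4 being the shorter.

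**Figure D2:**
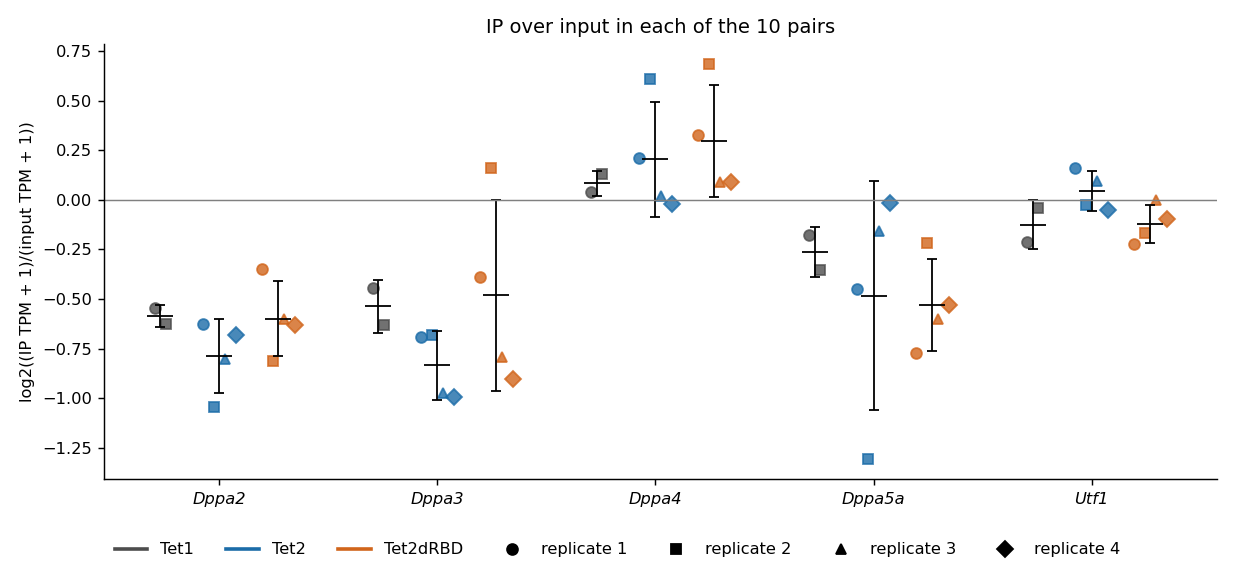
log2((IP TPM + 1)/(input TPM + 1)) of each gene in each of the 10 pairs, by tagged line (colour) and replicate (symbol), with the mean and SD of each line as black bars. Dppa2 is below 0 in every pair, Dppa4 is at or above −0.02 in every pair, and Dppa5a and Dppa3 each have one replicate 2 pair far from the rest.

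Dppa3 mRNA was lower in the Tet2 and Tet2dRBD IPs. In Tet1 the IPs held 21.9 and 20.4 TPM against inputs of 30.2 and 32.2. In Tet2 the IPs held 19.5, 7.01, 4.60 and 3.93 TPM against 32.0, 11.8, 10.0 and 8.82. In Tet2dRBD they held 20.5, 13.3, 8.98 and 9.12 TPM against 27.2, 11.8, 16.3 and 17.9. The IP was below its own input in 9 of the 10 pairs, and replicate 2 of Tet2dRBD was the exception. The fitted log2(IP/input) was −0.71 (SE 0.27, adjusted p = 0.146) in Tet1, −1.25 (SE 0.20, adjusted p = 0.00142) in Tet2 and −0.79 (SE 0.20, adjusted p = 0.0202) in Tet2dRBD. In Tet2 this was an IP level of 0.421 of input relative to the bulk of transcripts, and 1.54% of tested genes were lower. Without replicate 2 of Tet2dRBD, the Tet1 value of −0.70 passed the threshold (adjusted p = 0.0220), since the lines share one estimate of the spread. By mean level, Tet1 input stood first and did not overlap Tet1 IP, and every later group, from Tet1 IP to Tet2 IP, overlapped the next. The share of all genes with such a gap in Tet1 was not counted.

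Dppa5a, the abundant KH-domain transcript, was below input in all 10 pairs, with the widest range between pairs of the 5 genes. In Tet1 the IPs held 9904 and 8850.04 TPM against inputs of 11185 and 11290.5. In Tet2 they held 7460, 3613, 10469.7 and 11086 TPM against 10176.5, 8953, 11667 and 11226, and in Tet2dRBD 5590.1, 10609.9, 8041 and 7905 TPM against 9556, 12324, 12214 and 11433. On the log2 TPM scale the Tet2 pairs ran from −1.31 in replicate 2 to −0.02 in replicate 4, so that in Tet2 the difference was large in 1 pair, moderate in replicate 1 and small in replicates 3 and 4. The fitted log2(IP/input) was −0.41 (SE 0.33, adjusted p = 0.495) in Tet1, −0.79 (SE 0.24, adjusted p = 0.0250) in Tet2 and −0.81 (SE 0.23, adjusted p = 0.0339) in Tet2dRBD. Without replicate 2 of Tet2 the Tet2 value was −0.46 (adjusted p = 0.0729), and without replicate 1 it was −0.74 (adjusted p = 0.0952). In all 3 lines inputs averaged higher than IPs, but each group overlapped the next in the order of levels. In Tet1 both IPs lay below both inputs, and the share of all genes with such a gap was not counted.

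Utf1 was recovered close to its input level by TPM. In Tet1 the IPs held 554 and 697 TPM against inputs of 641 and 716. In Tet2 they held 887, 1337, 671 and 669.97 TPM against 794, 1359.9, 627 and 694, with 2 pairs above and 2 below input. In Tet2dRBD they held 803, 1329, 716 and 721 TPM against 937, 1489.7, 715 and 772, below input in 3 of 4 pairs and level in the other. The fitted log2(IP/input) was −0.27 (SE 0.14, adjusted p = 0.287) in Tet1, −0.27 (SE 0.10, adjusted p = 0.0620) in Tet2 and −0.40 (SE 0.10, adjusted p = 0.0227) in Tet2dRBD, so the change in Tet2dRBD passed the threshold as a modest one, to 0.759 of input relative to the bulk of transcripts. In Tet2 the TPM ratio had the other sign (mean log2 ratio 0.05 ± 0.10, SD, n = 4). With TPM ratios centred on the median gene, Utf1 was below 0 in every pair of each line, from −0.48 to −0.08. All 6 groups overlapped their neighbours in the order of levels, with replicate 2 the highest library of each Tet2 and Tet2dRBD group.

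Across the 5 genes, 1 was lower in the Tet1 IP (Dppa2), where 3.18% of tested genes were. In Tet2 3 were lower (Dppa2, Dppa3 and Dppa5a), against 18.5% of tested genes, and in Tet2dRBD 4 were lower (the same 3 and Utf1), against 12.1%. None was higher in any line by this test (unadjusted p under 0.05 and a positive value: none, with DESeq2 as well), where 2.72%, 14.6% and 7.4% of tested genes were higher. With limma on log2 TPM (pseudocount 1), Dppa4 in Tet2dRBD was at 0.30, with an unadjusted p of 0.0444 and an adjusted p of 0.109. Dppa2 was lower in all 3 lines, as were 2.99% of tested genes, and Dppa2, Dppa3 and Dppa5a were lower in both Tet2 and Tet2dRBD, as were 10.6%. The criterion of the study's methods counts a transcript as bound where its TPM is higher in IP than in input. Applied to every replicate of a line, it was met by Dppa4 alone in Tet1 (50.9% of tested genes met it), by none of the 5 in Tet2 (46.5%) and by Dppa4 alone in Tet2dRBD (31.8%). The opposite, IP below input in every replicate, held for all but Dppa4 in Tet1 (30.1% of tested genes), for Dppa2, Dppa3 and Dppa5a in Tet2 (11.9%) and for Dppa2 and Dppa5a in Tet2dRBD (8.56%). Both of these genes were below input in all 10 pairs, as were 5.59% of tested genes. With TPM ratios centred on the median gene, Dppa4 no longer met the criterion in any line. Utf1 was then below input in every replicate of each line, and the share of all genes for that was not counted.

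**Figure D3:**
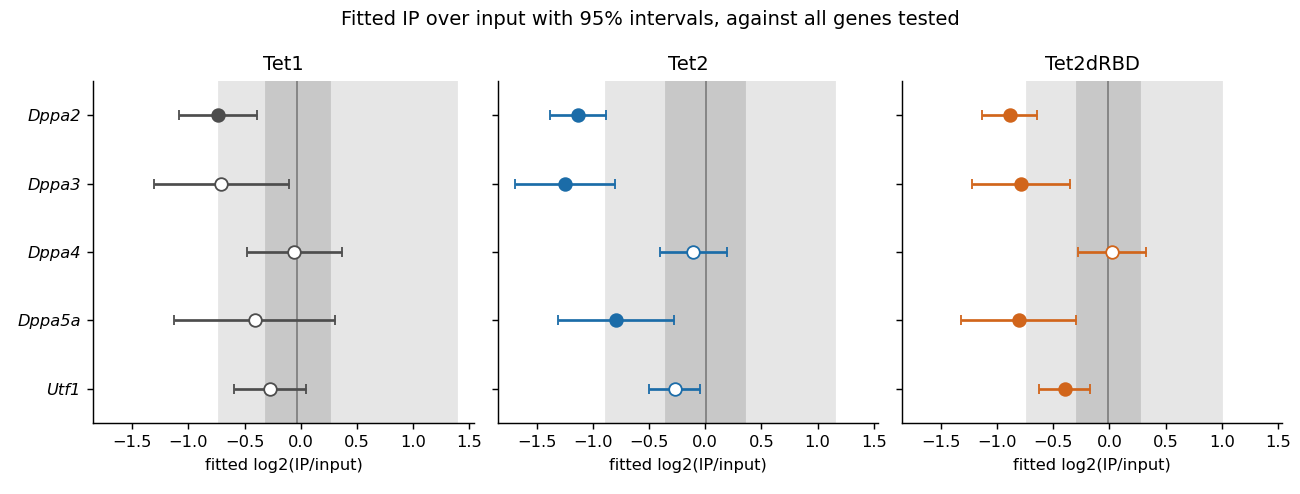
Fitted log2(IP/input) of the 5 genes with 95% intervals in each line (filled points: adjusted p under 0.05), over the spread of all tested genes (light band 5th to 95th percentile, dark band 25th to 75th, line at the median). Dppa2 and Dppa3 lie near or below the 5th percentile in each line, and Dppa4 lies inside the dark band in each line.

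These calls rest on the pairing of IP with input, and several are close to the threshold. Without the replicate block none of the 5 genes passed in any line (adjusted p of Dppa2 in Tet2 0.173), and with replicates 3 and 4 merged into 1 sample Dppa2 in Tet1 (adjusted p = 0.0564) and Dppa3, Dppa5a and Utf1 in Tet2dRBD (adjusted p = 0.0936, 0.100 and 0.100) were no longer called. Leaving out a pair kept Dppa2 and Dppa3 in Tet2 and Dppa2 in Tet2dRBD past the threshold in all 10 cases, with adjusted p of at most 0.00985 for both in Tet2 and 0.0118 in Tet2dRBD. Dppa2 in Tet1 was lost without replicate 3 of Tet2 or Tet2dRBD (adjusted p = 0.0521 and 0.0539). Without replicate 1 or 2 of Tet1 its fitted log2 was −0.84 or −0.64, with 1 Tet1 pair left. A fit with 1 pair of the line cannot decide a call. Every Tet1 call in this report rests on the same 2 pairs. In Tet2dRBD, Dppa3 was lost without replicate 1, 3 or 4 of that line (adjusted p = 0.0616, 0.0955 and 0.0563). Dppa5a was lost without any of the same 3 (0.129, 0.127 and 0.0704), either Tet1 replicate (0.0536 and 0.0533) or replicate 1 of Tet2 (0.0556). Utf1 was lost without any of the same 3 (0.126, 0.0882 and 0.0534), replicate 1 of Tet1 (0.0526) or replicate 1 of Tet2 (0.0577).

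The comparison of Tet2 with Tet2dRBD asks whether the RNA-binding domain alters the recovery of these transcripts. None of the 5 passed the test of this difference, where 0.0219% of tested genes did (edgeR contrast of the IP effects; 0 of the 5 at an unadjusted p under 0.05, and 0 with DESeq2 or limma). The fitted difference, Tet2 minus Tet2dRBD, was −0.24 for Dppa2 (95% interval −0.59 to 0.11), −0.46 for Dppa3 (−1.08 to 0.16), −0.13 for Dppa4 (−0.55 to 0.30), 0.01 for Dppa5a (−0.71 to 0.74) and 0.13 for Utf1 (−0.19 to 0.44), and each adjusted p was 0.99998. The intervals leave room for differences of either sign, and a missed threshold does not show that the proteins recover these RNAs alike. By replicate number the TPM ratios of Dppa2, Dppa3 and Dppa4 were lower in Tet2 at 4 of 4 numbers, by 0.05 to 0.28, 0.09 to 0.84 and 0.07 to 0.12 on the log2 scale, and that of Utf1 was higher at 4 of 4, by 0.05 to 0.38. Dppa5a was higher in Tet2 at numbers 1, 3 and 4, by 0.33 to 0.51, and lower at number 2, by −1.09. Some of these orders depended on scaling. With ratios centred on the median gene, Utf1 at number 2 was at −0.40 in Tet2 and −0.18 in Tet2dRBD. Dppa2 at number 4 was then at −0.80 and −0.81, while Dppa3, Dppa4 and Dppa5a kept their orders. Replicates 3 and 4 were nearly alike, and how many of all genes have such an order was not counted. In inputs, no difference between Tet2 and Tet2dRBD passed for any of the 5 (0 called by edgeR, DESeq2 or limma and 0 at an unadjusted p under 0.05; 0.0% of 13310 genes called), with fitted log2 differences of −0.20 to −0.10.

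The Tet1 line differed from Tet2 in assumed set as well as in protein. With all sets in the fit, no difference between their IP effects passed for any of the 5 (Tet1 minus Tet2 from −0.00 for Utf1 to 0.54 for Dppa3, adjusted p of at least 0.940, 0 at an unadjusted p under 0.05 and 0 with DESeq2 or limma; 0.0% of tested genes called). The intervals were −0.04 to 0.81 for Dppa2, −0.20 to 1.28 for Dppa3, −0.47 to 0.56 for Dppa4, −0.50 to 1.26 for Dppa5a and −0.39 to 0.39 for Utf1. Within the one set that holds both lines (Tet1 replicates 1 and 2, Tet2 replicates 3 and 4), Dppa3 passed, with a difference of 0.68 (SE 0.20, adjusted p = 0.0279), the Tet1 IP being less depleted of it, where 12.4% of genes were higher. Dppa2 was at 0.26 (adjusted p = 0.0514), Dppa4 at 0.17 (adjusted p = 0.116), Dppa5a at −0.08 (adjusted p = 0.628) and Utf1 at −0.06 (adjusted p = 0.669).

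Input levels of Tet1 against Tet2 gave the same division between the fits. Over all sets, Dppa2 was 1.25 higher in the Tet1 inputs on the log2 scale (SE 0.48, adjusted p = 0.423) and Dppa4 0.65 higher (adjusted p = 0.333), and neither passed (2 of the 5 at an unadjusted p under 0.05, these same genes, 0 called by edgeR, DESeq2 or limma; 0.406% of genes were called). Within the shared set, Dppa2 was 0.90 higher in Tet1 (SE 0.08, adjusted p = 7.16e-14), Dppa3 1.63 higher (SE 0.15, adjusted p = 2.80e-13) and Dppa4 0.58 higher (SE 0.08, adjusted p = 2.56e-08), while Dppa5a was at −0.12 (adjusted p = 0.229) and Utf1 at −0.06 (adjusted p = 0.580). In that fit 30.5% of genes were higher in Tet1. Both fits within the shared set compare 2 replicates a line that were nearly alike and may be technical, so their p-values measure only the spread between these close libraries. Line and clone cannot be told apart here.

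The genes on either side of each locus give the local context. Nanog, the pluripotency factor 77217 bases from Dppa3, was lower in IP in all lines, at −0.80 (adjusted p = 0.0232), −1.19 (adjusted p = 0.000116) and −1.02 (adjusted p = 0.000521) in Tet1, Tet2 and Tet2dRBD. Gdf3, a growth factor gene 16323 bases to the other side of Dppa3, stood at −0.20, −0.19 and −0.34, none of which passed. Kndc1, 2252 bases from Utf1, was lower in IP at −0.72 (adjusted p = 0.0291), −0.55 (adjusted p = 0.00377) and −0.75 (adjusted p = 0.00183), while 6430531B16Rik on the other side was not called (−0.30, −0.18 and −0.23). Morc1, a gene needed for transposon silencing in male germ cells that lies 111514 bases from Dppa2, was higher in IP at 2.48 (adjusted p = 0.0218), 2.13 (adjusted p = 0.00106) and 1.53 (adjusted p = 0.0109). Pvrl3, a cell adhesion gene far from Dppa4 at 1785210 bases, stood at 1.00, 0.53 and 0.86 and passed in Tet2dRBD (adjusted p = 0.0799, 0.0804 and 0.0242), and neither difference between lines was called. Neither neighbour of Dppa5a passed: Gsta4 stood at 0.21, 0.03 and 0.02 and Ooep, the KH-domain oocyte gene 7932 bases away, at −0.04, −0.29 and −0.58.

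Related genes were counted over 6 lists, to be read against the shares of all tested genes that were lower (3.18% in Tet1, 18.5% in Tet2 and 12.1% in Tet2dRBD) or higher (2.72%, 14.6% and 7.4%). Of the 4 Dppa genes tested, the median fitted ratio was −0.56, −0.96 and −0.80 in Tet1, Tet2 and Tet2dRBD, against medians of −0.036, 0.003 and −0.015 over all genes. Of 24 pluripotency-associated genes, 2 were lower and 1 higher in Tet1, 4 lower and 2 higher in Tet2, and 4 lower and 1 higher in Tet2dRBD, with medians of −0.18, −0.09 and −0.10. In Tet2 these counts are not above the shares of all tested genes. Those lower in Tet2 and Tet2dRBD were Nanog, Klf5 (−0.55 and −0.57), Sox2 (−0.55 and −0.57) and Tdgf1 (−0.46 and −0.43), and in Tet1 Nanog and Klf5 (−0.64). The nuclear receptor gene Nr5a2 was higher in all 3 lines (1.64, 1.19 and 1.12). The pluripotency factor gene Klf2 was higher in Tet2 (1.14) and stood at 0.22 in Tet1 and −0.20 in Tet2dRBD, and its difference between Tet2 and Tet2dRBD passed the test (1.33, SE 0.14, adjusted p = 0.0120). That call was not stable: no gene passed for this difference with replicates 3 and 4 merged, with the compared lines alone, or without the replicate block. The same held with a block on replicate number across the lines, and without replicate 3 or 4 of Tet2 or replicate 1 or 3 of Tet2dRBD. It also held without replicate 2 of Tet1, a line outside this comparison. Pou5f1, the most abundant of them at 2000 to 3191 TPM in inputs, was not called (−0.18, −0.25 and −0.23). Sox2, Tdgf1 and Pou5f1 were named after their values were seen.

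Another list joined KH-domain genes, to which Dppa5a is related by its domain, with other genes of the oocyte maternal complex. Of its 9 genes 5 were tested, and only Zbed3, listed for the complex, passed. It was lower in all 3 lines (−0.77, −0.81 and −0.78), and the list medians were −0.10, −0.25 and −0.48. Of 16 germline-associated genes, Dazl, an RNA-binding germ cell gene, was higher in Tet1 (1.14, adjusted p = 0.0409), where 2.72% of tested genes were. Dazl was read at only 0.51 to 2.27 TPM in inputs. It stood at −0.35 in Tet2 and −0.40 in Tet2dRBD, neither of which passed. In Tet2 the piRNA pathway gene Mael (−0.61, adjusted p = 0.0392) and the germ cell transcription factor gene Tfap2c (−0.46, adjusted p = 0.0217) were lower and Prdm1, a specifier of primordial germ cells, was higher (0.54, adjusted p = 0.00793), against 18.5% of tested genes lower and 14.6% higher. None of the 16 passed in Tet2dRBD (by edgeR), and the medians were −0.22, −0.26 and −0.30. Of 12 genes for DNA methylation and its removal, on which Dppa3 acts, none passed in Tet1, and 4 were higher in Tet2, where 14.6% of tested genes were: the maintenance methyltransferase gene Dnmt1 (0.91), Dnmt3a (0.48), Tet2 (0.56) and the glycosylase gene Tdg (0.45, named after its values were seen). Tet1 (0.76) and Dnmt3a (0.31) were higher in Tet2dRBD, where 7.4% of tested genes were, and Dnmt3b was lower in Tet2 (−0.35) and Tet2dRBD (−0.39). The medians of this list were 0.24, 0.31 and 0.23, so it lay on the other side of 0 from the Dppa genes, and Uhrf1, which Dppa3 restrains, was not called (−0.02, 0.06 and −0.05).

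**Figure D4:**
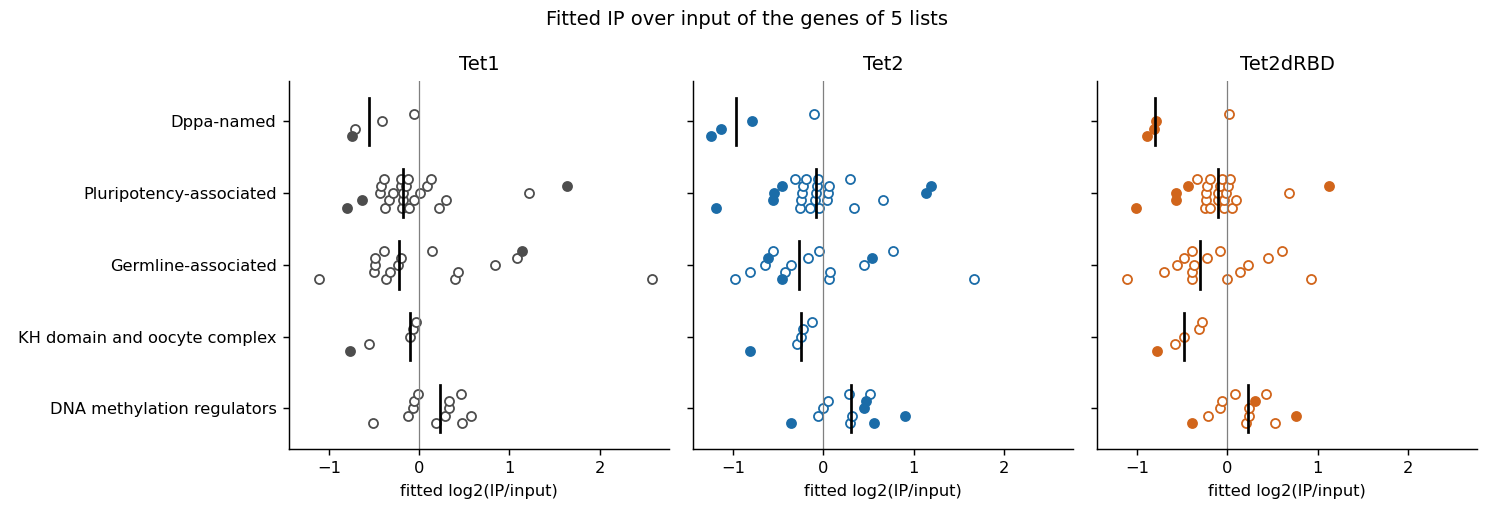
Fitted log2(IP/input) of the tested genes of 5 lists in each line, 1 point per gene (filled: adjusted p under 0.05) with the list median as a black bar and points spread vertically for legibility. The median of the 4 Dppa genes is below that of the other lists in each line, and the DNA methylation list has its median above 0. Genes of the 2-cell-like state are not drawn because several were at 0 in inputs.

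The genes of the 2-cell-like state, which Dppa2 and Dppa4 can activate, were mostly read at low levels, though Gm4340 reached 17.2 TPM in an input, Tcstv3 9.49 and Tcstv1 8.67. Of 12 tested, 4 were higher in Tet1 (Zscan4a, Zscan4c, Zscan4f and Gm4340), 3 in Tet2 (Zscan4a, Zfp352 and Gm4340) and 1 in Tet2dRBD (Gm4340), where Zscan4b was lower. Of all tested genes 2.72%, 14.6% and 7.4% were higher in these lines and 12.1% lower in Tet2dRBD. Tcstv1 and Tcstv3 were named after their values were seen. Most of these genes have near-identical copies among which reads can be split, and 8 were at 0 TPM in at least 1 input, so no fold change or median is given for the list. The summed TPM of Zscan4c, Zscan4d, Zscan4f and Zfp352 was 0.61 to 7.58 in inputs and 1.60 to 38.4 in IPs.

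As a description of pattern, the genes whose log2(IP/input) followed each of the 5 most closely over the 10 pairs were sought among 8467 genes with a mean input of at least 5 TPM. For Dppa2 they were Cox7a2l (r = 0.93), Fam36a (r = 0.92) and Gm13051 (r = 0.92), and for Dppa3 Eif1ax (r = 0.97), Zbtb2 (r = 0.96) and Taf9 (r = 0.96). For Dppa4 they were 4930452B06Rik, Trip13 and Trim44 (r = 0.98 each), for Dppa5a 1810027O10Rik (r = 0.96), Rps4x (r = 0.96) and Trappc1 (r = 0.93), and for Utf1 Zfpl1 (r = 0.89), Ctu2 (r = 0.89) and Pelo (r = 0.86). None of the 5 was among the 3 closest genes of another. Between Dppa2 and Dppa4 r was −0.46, and the highest among the 5 was 0.72, between Dppa3 and Dppa4, both of which had their highest ratio in replicate 2 of Tet2dRBD. The pairs share libraries and sets, replicates 3 and 4 were nearly alike, and these values are given without a test.

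Transcript length moved with the fitted ratio over all genes. The 13710 tested genes were divided into 5 classes of equal size by effective length. In the shortest class, which holds Dppa3, Dppa4, Dppa5a and Utf1, the median fitted log2(IP/input) was −0.17 in Tet1, −0.38 in Tet2 and −0.27 in Tet2dRBD, and 38.1% of genes were lower in Tet2. In the longest class the medians were 0.07, 0.30 and 0.20, and 5.84% of genes were lower in Tet2. Dppa2 fell in the class above the shortest, with medians of −0.05, −0.09 and −0.08 and 20.9% lower in Tet2, and its own values of −0.74, −1.13 and −0.89 were below the 25th percentile of that class (−0.30, −0.38 and −0.33). Dppa3 was below the 25th percentile of its class in each line (−0.42, −0.69 and −0.52), and Dppa5a was so in Tet2 and Tet2dRBD. Dppa4 was above the median of its class in each line, and Utf1 was below it in Tet1 and Tet2dRBD and above it in Tet2. Within the shortest class, which had a median effective length of 1044 bases and ended at 1483, lengths differed. Dppa5a (571) and Dppa3 (750) were shorter than that median, and Dppa4 (1449) was near the long end. The class percentiles therefore do not compare these genes with genes of their own length. The part of length in the ratios of the 5 genes was not tested further.

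**Figure D5:**
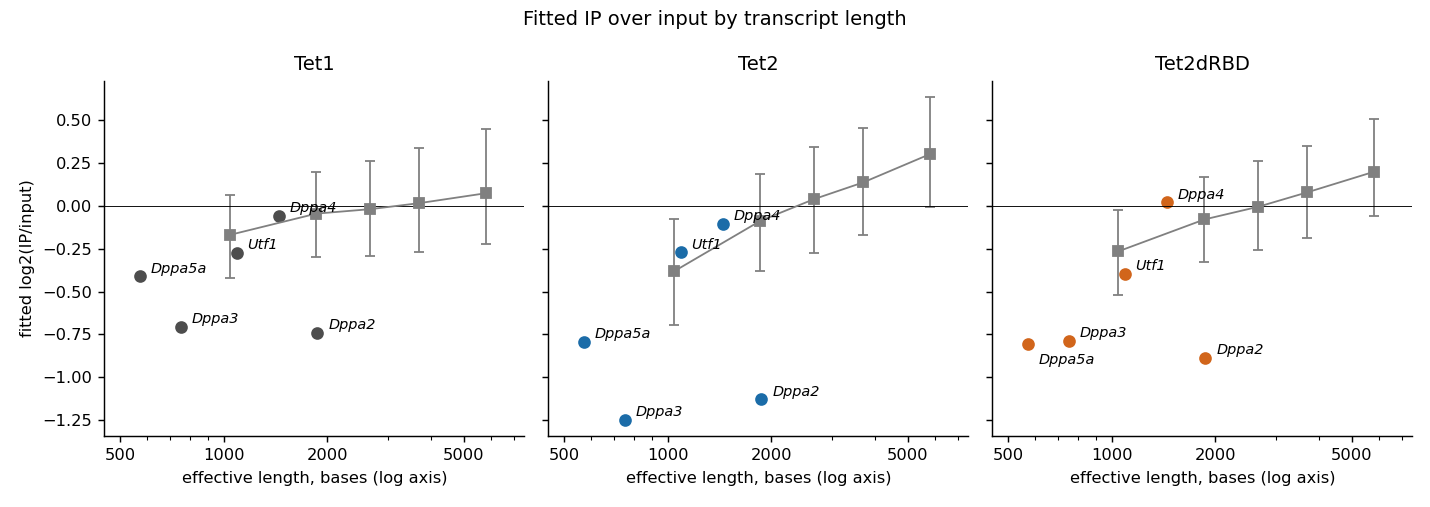
Fitted log2(IP/input) of the 5 genes (coloured points) against effective transcript length in bases on a log axis, with the median (grey squares) and 25th to 75th percentile (bars) of each of the 5 length classes of all tested genes. The medians rise with length, and Dppa2 and Dppa3 lie below the bars in each line.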

How the data were processed

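RIP-seq libraries of 10 IP and input pairs were analysed. Per the labels' processing notes, the authors used FastQC, Trimmomatic, Bowtie2 and RSEM with build mm9. The authors deposited, per gene, RSEM expected counts and TPM to which 1 had been added (the other column, FPKM, was not used here). TPM was recovered by subtracting 1. It is relative to each library's total, so highly abundant transcripts alter the others.

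Expected counts were rounded and fitted with edgeR 4.0.16 (TMM, genes with at least 1 CPM in at least 2 libraries, quasi-likelihood test, Benjamini-Hochberg over 13710 genes, threshold 0.05) in a design with a term for every pair and a separate effect of precipitation in each line. Intervals of 95% use 7 residual and 3.96 prior degrees of freedom. Inputs were fitted by line over 13310 genes. IP and input were paired by the replicate number of the labels, and their deviations from group means correlated at 0.614 or more in Tet2, 0.578 or more in Tet2dRBD and 0.184 in Tet1. Inputs of Tet2 and Tet2dRBD with the same number correlated at 0.687 or more, and blocking on the number there called none of the 5 genes. Ratios of TPM used a pseudocount of 1. The scripts were tested on simulated data.

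Sequences and positions come from NCBIM37 (mm9) with GENCODE vM1, matched by symbol (13109 of 13710 genes). One sequence window is not reported here. The 5 genes and the gene lists were chosen with earlier results of these data known. Other genes named were, for each of the 5, the 3 with the highest correlation over pairs and the nearest tested gene on each side, and up to 4 genes past the threshold per list by size of change. Alternatives were DESeq2 1.42.0, limma 3.58.1 on log2 TPM, other scalings, filters and pseudocounts, no block, fewer lines, replicates 3 and 4 merged, and each replicate left out.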

Additional observations from a re-analysis of the deposited data

Results flagged for a closer look

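Within the groups of 4 libraries, 5 of 30 sets of values had 1 library that stood apart from the other 3. The measure was the gap to the nearest value over the range, with the 95% limit of Dixon's test. Chance passes this limit in about 1 of 20 groups of independent values. Replicates 3 and 4 were nearly alike, so the 4 values were not independent and that rate does not hold here. The input TPM of Dppa2 in replicate 1 was far below the others in Tet2 (20.03) and in Tet2dRBD (24.62). The input TPM of Dppa3 in replicate 1 of Tet2 was far above the others (32.01). The IP TPM of Dppa4 in replicate 2 of Tet2 (141.14) and that of Utf1 in replicate 2 of Tet2dRBD (1329.07) were far above the others. All 5 fall in replicate 1 or 2, which carry numbers of their own in the deposited data, and replicates 3 and 4 share one. Because replicates 3 and 4 were nearly alike, neither had much room to stand apart by this measure. No conclusion about the deposited numbers is drawn from where the 5 fall.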

How the results depend on the processing

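Of the IP calls, Dppa2 and Dppa3 in Tet2 and Dppa2 in Tet2dRBD held under every alternative run except the fit without the replicate block, which left 0 of the 5 genes past the threshold in each line (0, 375 and 46 of all genes in Tet1, Tet2 and Tet2dRBD, against 809, 4540 and 2674). The replicate block across Tet2 and Tet2dRBD, and that between their inputs, called none of the 5. Fits on log2 TPM called 0 in Tet1 with either pseudocount and 2 (pseudocount 1) or 1 (pseudocount 0.1) in Tet2dRBD. On that scale the share of calls that were higher in Tet2 IP was 80.9%, against 44.2% in the count model (Tet1 76.2% against 46.1%, Tet2dRBD 83.6% against 37.9%). With replicates 3 and 4 merged, 0 were called in Tet1 and 1 in Tet2dRBD. Fitting the compared line alone called 4 in Tet1, from 2 pairs that were nearly alike, where 6985 of 12691 genes were called (3383 lower). Such a fit called 2 in Tet2dRBD (748 of 13260 genes, 601 of them lower). Library totals without TMM called 2 in Tet2dRBD (2884 of 13710 genes, 947 of them lower). Dppa5a in Tet2 was not called with that line alone (adjusted p = 0.0804) or on log2 TPM (limma, 0.0530 and 0.0660), which left 2 of the 3 Tet2 calls. Utf1 was not called in Tet2dRBD without the count filter (adjusted p = 0.0509) and was called in Tet2 with DESeq2 (0.0479). In the shared set alone, Tet1 against Tet2 called 1 in the IP effect (2262 of all genes, against 0 over all sets) and 3 in inputs (7632, against 54). Leaving out replicates gave 0 to 2 genes in Tet1 and 1 to 4 in Tet2dRBD. Above input in every replicate, by TPM, were 2 combinations of gene and line, and 0 after centring or with CPM.

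Values that changed sign were all uncalled. On log2 TPM with pseudocounts 1 and 0.1, Dppa4 was at 0.0839 and 0.0844 in Tet1 and 0.2039 and 0.2058 in Tet2, Utf1 at 0.0456 with both in Tet2, and Dppa4 in Tet1 minus Tet2 at −0.1201 and −0.1214. Dppa5a in Tet2 minus Tet2dRBD was −0.0228 with DESeq2, −0.0463 without TMM and −0.1883 with replicates merged. In the shared set Dppa5a was −0.0841 in Tet1 minus Tet2 and −0.1243 in inputs. Utf1 in Tet1 minus Tet2 was 0.0287 without the block and 0.0333 with replicates merged. Leaving out replicates, Dppa4 ran from −0.1384 to 0.1086 in Tet2dRBD, from −0.214 to 0.0645 in Tet2 minus Tet2dRBD and from −0.012 to 0.1176 in Tet1 minus Tet2. Dppa5a ran from −0.1959 to 0.3365 in Tet2 minus Tet2dRBD and Utf1 from −0.089 to 0.0403 in Tet1 minus Tet2. Of input differences, Tet2 minus Tet2dRBD ran from −0.4602 to 0.0592 for Dppa2, −0.8797 to 0.0988 for Dppa3, −0.1645 to 0.0199 for Dppa5a and −0.4167 to 0.0869 for Utf1, and Tet1 minus Tet2 from −0.0935 to 0.1045 for Dppa5a. The cause of these changes was not tested. Dppa3 is limited by depth, with 58.0 expected counts in its lowest IP and 119.0 in its lowest input.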
